A study of Mus musculus with 30 samples.

Results

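Collagen chain genes encode the subunits of collagen, the protein that makes up most of the extracellular matrix. They were taken here as every gene symbol made of Col, a number, the letter a and a number, together with Emid2, the older symbol of Col26a1. The rule found 44 genes among the 22609 counted. By the type of collagen they build, 11 were fibrillar, 9 belonged to basement membranes and their anchors, 9 formed networks or beaded filaments, 9 were FACIT collagens (fibril-associated collagens with interrupted triple helices), 4 were transmembrane and 2 were grouped as other (Col28a1 and Emid2).

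RNA was sequenced from the paw and from dorsal root ganglia (DRG), clusters of sensory neuron cell bodies with their glia, vessels and connective tissue sheath, in C57BL/6J mice aged 10 to 12 weeks. There were 30 libraries in 10 groups of 3. In 8 groups, from females and males, the paw had been injected with prolactin (PRL, a pituitary hormone, at 1 µg) or with vehicle (Veh, phosphate-buffered saline), and ribosomal RNA was removed before sequencing. The other 2 groups, DRG and paw of females, carry the suffix Sh, which the labels do not explain. They are labelled as prolactin-treated like the PRL groups and were made with an mRNA selection kit. By the sample labels 18 libraries are from females and 12 from males. The design text has the sexes swapped in these totals, and every comparison by sex follows the labels. The protocol lists 2 schedules, 1 injection or a daily course of 12 days, and no library is assigned to either. The labels do not state whether the 3 libraries of a group came from separate animals, so p-values measure the spread between these libraries, which may be technical.

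Each collagen is a trimer of chains that wind into a triple helix. Types I, III and V assemble into the fibrils of skin, tendon and nerve sheath, type IV forms the sheet of basement membranes, and type VI forms beaded filaments around cells. Fibroblasts produce most fibrillar collagen. Schwann cells, satellite glia and endothelium contribute basement membrane chains, and basal keratinocytes make types VII and XVII, which fix the epidermis to the dermis. Prolactin acts through a cytokine receptor that signals through STAT5.

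Gene reads per library numbered 8.987 to 13.327 M in the DRG, 6.867 to 13.471 M in the paw and 21.795 to 26.515 M in the PRL_Sh groups. Male paw Veh replicate 2 was the shallowest and had 13.6% of its reads in genes. Female paw PRL replicate 2 stood apart in cartilage and bone genes: it held 957 reads of Col10a1, the collagen of hypertrophic cartilage, against 0 to 19 in all other libraries, and 181 reads of Col2a1, the main collagen of cartilage. Neither gene passed the filter on low counts for PRL against Veh in the paw. Female DRG Veh replicate 1 stood apart in fat cell genes: its 5 adipocyte markers summed to 154.5 CPM of gene reads, against 23.53 and 43.9 in the other 2 libraries of its group. The arms also differed in genes outside the collagens. Nnt, a mitochondrial transhydrogenase, was at 38.4 to 64.0 CPM (TMM-normalised counts scaled to library size) in the 6 DRG PRL libraries and at 18.9 to 22.3 in the 6 DRG Veh libraries. Its log2 change from Veh to PRL, averaged over the sexes, was 1.19 in the DRG and 1.86 in the paw. Wdfy1, a phosphoinositide-binding endosomal protein, separated the arms by 1.47 ± 0.06 (SE) in the DRG and 1.09 ± 0.06 in the paw, and Gabra2, a GABA receptor subunit, by 1.29 ± 0.06 in the DRG. C57BL/6J mice are known for a deletion within Nnt and for reduced Gabra2 expression. The labels give C57BL/6J for every library, and the effect of prolactin cannot be told apart from any other difference between the PRL and Veh mice.

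Collagen reads took a larger share of gene reads in every PRL group than in its Veh group. In female paw the 44 genes held 3.24%, 2.80% and 2.29% of gene reads with PRL and 1.12%, 0.977% and 0.913% with Veh. Male paw gave 2.36%, 3.85% and 3.57% with PRL and 1.82%, 1.19% and 1.49% with Veh. Shares in female DRG were 0.880%, 1.02% and 0.763% with PRL against 0.648%, 0.497% and 0.461% with Veh, and in male DRG 0.739%, 0.649% and 0.746% against 0.378%, 0.504% and 0.437%. PRL and Veh did not overlap in any of these 4 pairs of groups. The PRL_Sh libraries held 0.395% to 0.483% in the DRG and 0.284% to 0.380% in the paw. In bulk tissue a change in the number of cells of a type and a change in RNA per cell cannot be told apart.

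**Figure D1:**
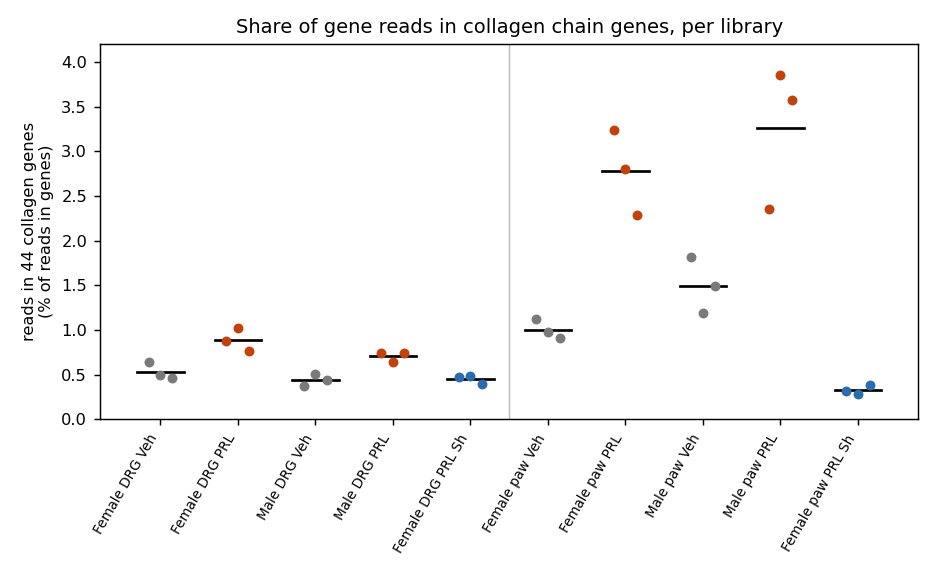
Share of gene reads (%) that fell on the 44 collagen chain genes in each of the 30 libraries, by group; grey points are Veh, orange PRL and blue PRL_Sh, and the bar is the mean of 3. In each sex and tissue all PRL points lie above all Veh points, with 2.29% to 3.85% in the PRL paw.

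The vehicle libraries gave the resting levels. On a per-length scale (CPM of gene reads per kilobase of transcript, mean ± SD, n = 3), the 3 chains of types I and III led in both tissues. Col1a2, the second chain of type I, was highest in the DRG, at 178 ± 31.9 in females and 145 ± 22.8 in males. Col1a1, its first chain, followed at 113 ± 28.8 and 74.7 ± 10.3, then Col3a1, the only chain of type III, at 104 ± 34.6 and 71.9 ± 17.5. Col4a1, a chain of the common type IV network, stood at 78.6 ± 13.2 in females and 69.5 ± 9.83 in males. Col1a1, Col3a1 and Col4a1 thus lay within each other's spread in male DRG, while Col1a2 stood clear of them. In the paw Col3a1 was highest, at 435.8 ± 51.8 in females and 760.1 ± 191 in males. Col17a1, the hemidesmosome collagen of basal keratinocytes, came next after the type I and III chains, at 217 ± 25.0 and 179.6 ± 25.1.

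The tissue comparison (Veh paw against Veh DRG, averaged over the sexes, edgeR quasi-likelihood test with Benjamini-Hochberg adjustment over all genes) placed 17 of the 43 tested chains higher in the paw and 21 lower, where 43.2% of all tested genes were higher and 42.3% lower. Chains of the epidermal anchorage stood out by size: Col17a1 was higher in the paw by 10.20 ± 0.31 on the log2 scale (SE; adjusted p = 1.6e-17), Col4a6 by 5.47 ± 0.24 and Col7a1, the anchoring fibril collagen, by 4.46 ± 0.10. Over both kits the DRG libraries held 3 to 24 reads of Col17a1 and the paw libraries 5993 to 22944. Keratinocyte markers (6 genes) summed to 6.12 to 66.6 CPM of gene reads in the DRG and to 25410 to 49630 in the paw, in the rRNA-depleted libraries.

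Dermal chains were also higher in the paw, among them Col3a1 by 2.78 ± 0.17, Col1a1 by 2.05 ± 0.17 and Col6a1, a chain of the beaded filament, by 1.93 ± 0.15. On the DRG side stood chains at low or no level in the paw. Emid2 was lower in the paw by a log2 change of -6.69 ± 0.31, Col9a2, a chain of the cartilage FACIT type IX, by -6.07 ± 0.43, Col24a1, a minor fibrillar chain, by -4.15 ± 0.13 and Col28a1, a collagen known from Schwann cells and peripheral nerve, by -3.29 ± 0.09. Emid2, Col9a2 and Col2a1 passed the filter on low counts only through the DRG libraries, and Col9a1, called higher, only through the paw libraries. Their changes and their place in the counts above are a description with no test. Col23a1, a transmembrane chain, differed by -3.03 ± 0.13 and Col19a1, a basement membrane zone FACIT, by -2.95 ± 0.27. Not past the threshold were Col12a1, Col6a6, Col22a1, Col11a2 and Col10a1. The remaining member, Col6a4, had 0 to 16 reads in every library and did not pass the filter on low counts.

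**Figure D2:**
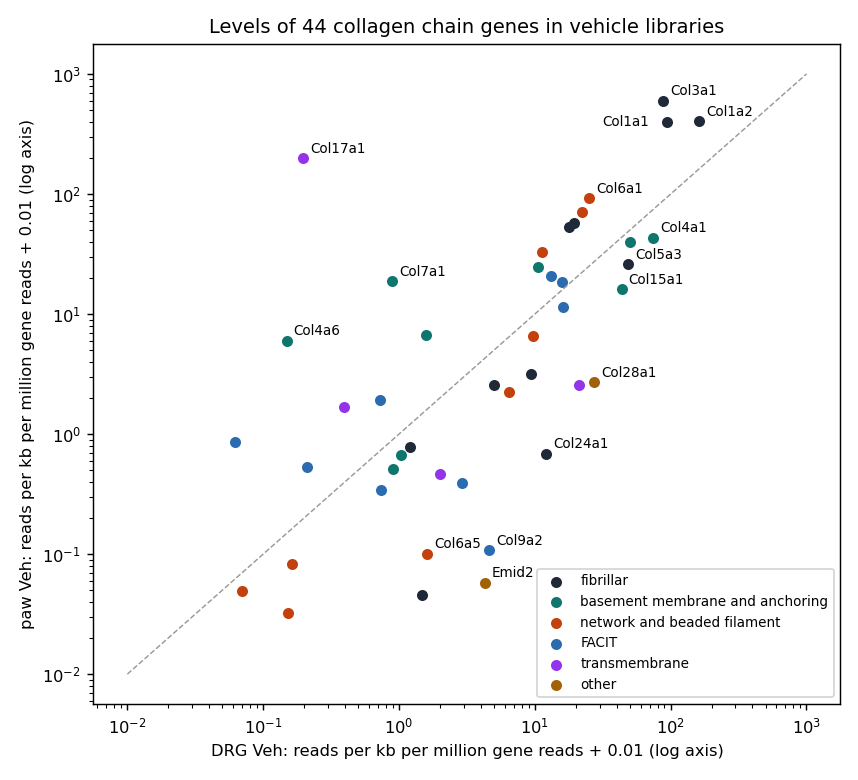
Mean level of each of the 44 collagen chain genes in the Veh libraries of the DRG (x axis) and of the paw (y axis), both in CPM of gene reads per kilobase plus 0.01 on log axes, coloured by collagen type; the dashed line marks equal levels. Col17a1, Col4a6 and Col7a1 lie far above the line, and Emid2, Col9a2, Col24a1 and Col28a1 below it.

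Levels of fibril and filament chains in the injected paw were higher with PRL than with Veh. Averaged over the sexes, 19 of the 39 tested members rose and 2 fell, where 14.9% of all tested genes rose and 10% fell. One of the 19, Col6a6, and 1 member that was not called, Col9a3, passed the filter on low counts only with the PRL libraries, so the count is given as a description. The median log2 change of the members that passed was 0.508, beside 0.006 over all tested genes. Without Female paw PRL replicate 2, 18 members rose and 2 fell, and without Male paw Veh replicate 2, 19 rose and 2 fell. Of the 10 tested fibrillar chains 8 rose, as did 5 of 7 network and beaded filament chains (Col6a6 among them), 2 of 8 FACITs and 4 of 9 basement membrane chains. One basement membrane chain (Col4a6) and one transmembrane chain (Col17a1) fell. Emid2, Col2a1, Col9a2, Col10a1 and Col6a4 did not pass the filter.

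Among fibrillar chains, Col1a1 stood at 7136, 5911 and 4175 CPM in the female PRL libraries and at 1769, 1294 and 1230 with Veh. Male paw had 5847, 8678 and 8584 CPM with PRL and 4144, 2511 and 3256 with Veh. The arms did not overlap in either sex, though the highest male Veh library (4144) lay just under the lowest female PRL library (4175). The average change was 1.61 ± 0.18 (adjusted p = 7.8e-05). Col3a1 rose from 2633, 2292 and 2101 to 9382, 8168 and 6917 CPM in females and from 5315, 3446 and 4192 to 7681, 12384 and 11997 in males, by 1.55 ± 0.16 on average (adjusted p = 3.7e-05). Col1a2 rose by 1.37 ± 0.15.

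The chains of type V, which nucleate collagen fibrils, rose too: Col5a1 by 1.25 ± 0.16, Col5a2 by 1.37 ± 0.13 and Col5a3 by 1.67 ± 0.16. Col5a3 was at 584, 489 and 340 CPM in female PRL paw against 155, 149.8 and 146 with Veh. Both minor fibrillar chains of the Col24a1 and Col27a1 branch rose. Col24a1 was at 12.6, 14.6 and 12.8 CPM with PRL and 4.49, 4.70 and 3.93 with Veh in females, and at 24.6, 18.7 and 17.3 against 3.25, 7.63 and 4.97 in males, an average change of 1.80 ± 0.17 (adjusted p = 2.7e-05). Its lowest PRL library was thus above its highest Veh library in either sex. Col27a1 rose by 1.06 ± 0.12. Cartilage chains Col11a1 and Col11a2 did not pass the threshold. Col11a2 had a change of 1.25 ± 0.48 (edgeR adjusted p = 0.079), with its highest level, 22.7 CPM, in Female paw PRL replicate 2. It was called higher with the level of skeletal muscle markers as a covariate (1.17, edgeR adjusted p = 0.0061). It was also called in 2 edgeR fits without 1 library.

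Type VI collagen held the largest changes. Its classic trimer is made of the Col6a1, Col6a2 and Col6a3 chains, and Col6a4, Col6a5 and Col6a6 encode alternatives to the third chain. Col6a2 stood at 1111, 1001 and 1137 CPM in female PRL paw and at 319, 242 and 226 with Veh, and at 934, 1481 and 1141 against 338, 260 and 275 in males. Neither sex showed overlap, and the average change was 2.04 ± 0.13 (adjusted p = 4.6e-06). Col6a1 rose by 1.57 ± 0.14 and Col6a3 by 1.26 ± 0.17.

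Col6a5 had the largest rise of the members. Its read counts were 1220, 1033 and 3285 in female PRL paw against 16, 13 and 13 with Veh, and 1349, 3413 and 981 in male PRL paw against 2, 3 and 8. In CPM that was 103, 101 and 308 against 1.41, 1.09 and 1.19 in females and 119, 301 and 95.0 against 0.15, 0.47 and 0.65 in males. The fitted log2 change was 7.90 ± 0.52 (adjusted p = 4.6e-06). Every PRL library was at least 95.0 CPM and no Veh library passed 1.41, and within each PRL group 1 library stood well above the other 2. Col6a6, its neighbour on chromosome 9, showed the same 2 libraries highest: 15.9, 11.9 and 37.4 CPM in female PRL paw against 0.70, 0.67 and 0.18, and 18.5, 34.1 and 10.4 in males against 0.89, 0.93 and 0.49, a fitted log2 change of 5.07 ± 0.46. Col6a6 passed the filter on low counts only through the PRL libraries, where it is high, so its fitted change is given as a description with no test. The next gene in that row, Col6a4, stayed at 4 to 14 reads in the paw PRL libraries and 1 to 7 in the paw Veh libraries.

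**Figure D3:**
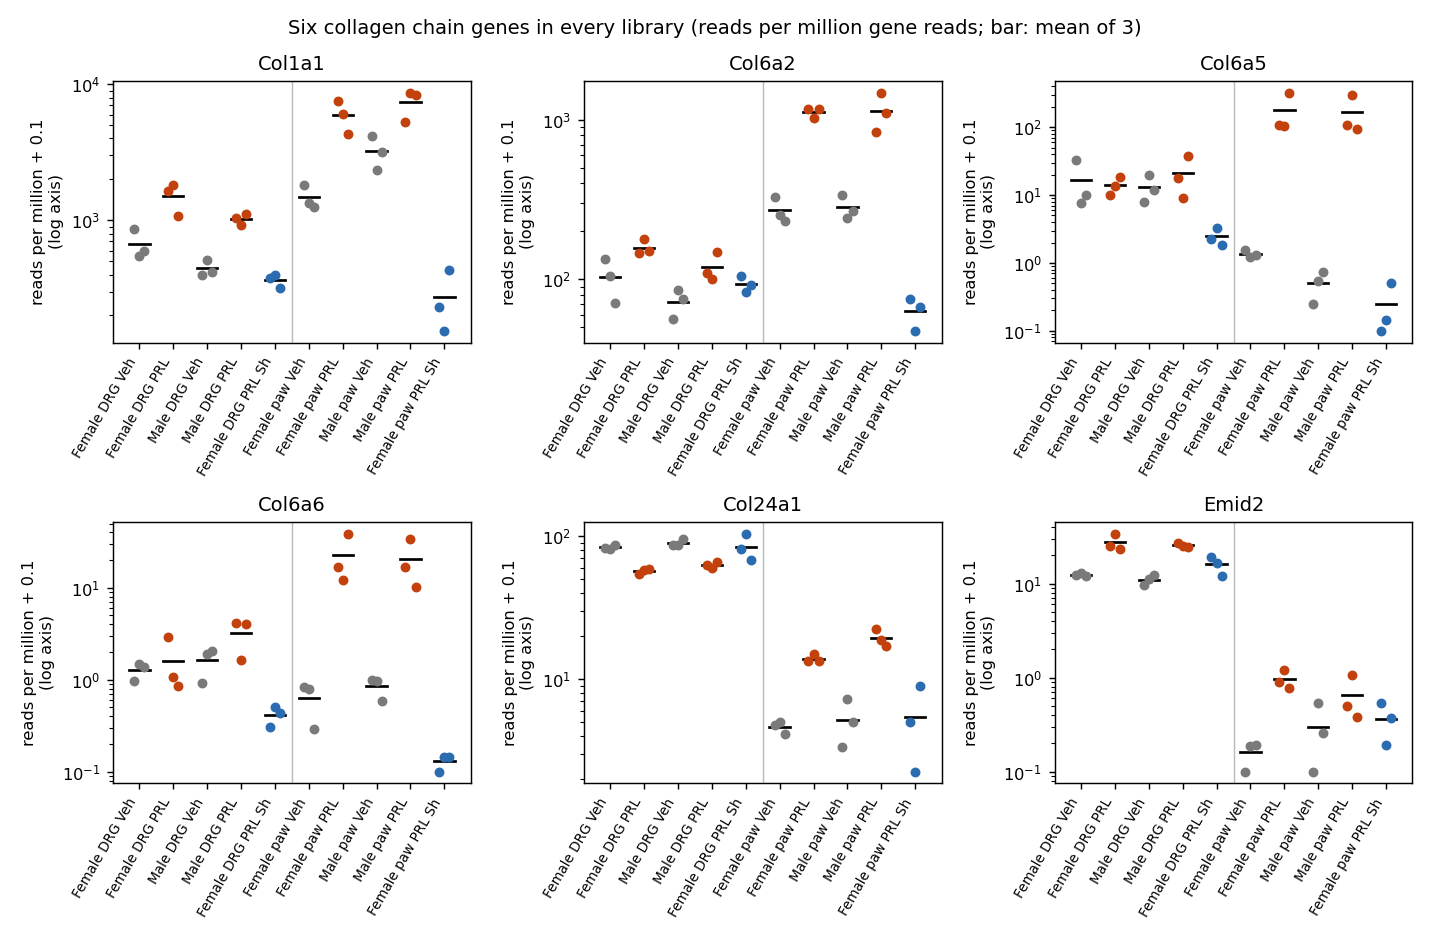
CPM of gene reads plus 0.1 (log axis) of Col1a1, Col6a2, Col6a5, Col6a6, Col24a1 and Emid2 in the 30 libraries; grey points are Veh, orange PRL and blue PRL_Sh, and the bar is the mean of 3. Col6a5 and Col6a6 separate PRL from Veh in the paw and not in the DRG, while Col24a1 is lower with PRL in the DRG and higher in the paw.

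Among the FACITs Col14a1, which binds the fibril surface, rose by 1.40 ± 0.12 (adjusted p = 1.4e-05), from 94.0, 84.6 and 59.8 to 225, 183 and 169 CPM in females. Col12a1, the most abundant FACIT by CPM, rose by 0.46 ± 0.13 (adjusted p = 0.026). It no longer passed in 6 of its 18 alternatives, each of which left out 1 library. In basement membranes Col15a1, which joins them to the fibrils beneath, rose by 0.96 ± 0.09, and the paired chains Col4a1 and Col4a2 rose by 0.59 ± 0.13 and 0.49 ± 0.12. Col18a1, the source of endostatin, passed narrowly at 0.34 ± 0.11 (adjusted p = 0.047), and its call was lost in 12 of 18 alternatives.

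Epidermal chains went the other way. Col17a1 was at 678, 708 and 623 CPM in male PRL paw and 1146, 933 and 1002 with Veh, without overlap, and at 900.5, 724 and 989 against 1015, 1258 and 1235 in females, also without overlap. It fell by 0.52 on average (SE 0.10; adjusted p = 0.0026). Col4a6 fell by 0.58 (SE 0.13). Its partner on the X chromosome, Col4a5, had a log2 change of -0.27 ± 0.11 (adjusted p = 0.099) and Col7a1 of -0.13 ± 0.08 (adjusted p = 0.25), neither past the threshold.

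Cell type markers moved beside these genes. All 6 macrophage markers rose in the paw on average, and their summed level was 635.9 to 1176 CPM of gene reads in female PRL paw against 243.2 to 323.4 with Veh, and 793.6 to 962.3 against 313 to 493.7 in males. Of 6 fibroblast markers 2 rose, 5 had a positive log2 change (median of the 6, 0.284) and 4 had an unadjusted p under 0.05 (edgeR). The 1 with a negative change, Dcn, was the most abundant. Summed levels of the 6 overlapped between the arms. They were 1811 to 2164 CPM with PRL and 1929 to 2412 with Veh in females, and 2217 to 2466 against 2031 to 2905 in males. Of the 6 keratinocyte markers 2 fell, and the sum was 25410 to 34790 CPM in male PRL paw against 41460 to 49630 with Veh, while the female ranges overlapped. Of 6 endothelial markers 3 rose. Of 5 adipocyte markers 2 fell, Plin1 (-0.88 ± 0.22) and Adipoq (-0.89 ± 0.28), with sums of 53.11 to 78.11 CPM against 83.3 to 89.34 in males and overlapping ranges in females. No marker of these lists was at 0 in a whole paw group. The part of these cell types in the collagen changes was not tested.

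Promoter sequences are shown for 4 members whose changes differ in direction or tissue, since prolactin signals through STAT factors and these bind the GAS element, spelled TTCNNNGAA. Each is the 250 bases before the gene's start in RefSeq on GRCm38.p6, 5′ to 3′ on the gene's own strand, with capitals for matches, on either strand, to the TATA box (letters TATAAA), to the box spelled CCAAT or to the GAS element. The Col3a1 window lies at chr1:45311288-45311537 on the plus strand, that of Col6a5 at chr9:105960644-105960893 on the minus strand, that of Col24a1 at chr3:145292222-145292471 on the plus strand and that of Col28a1 at chr6:8192618-8192867 on the minus strand. None overlaps an annotated exon, and those of Col6a5 and Col28a1 lie within the gene's RefSeq span.
Col3a1: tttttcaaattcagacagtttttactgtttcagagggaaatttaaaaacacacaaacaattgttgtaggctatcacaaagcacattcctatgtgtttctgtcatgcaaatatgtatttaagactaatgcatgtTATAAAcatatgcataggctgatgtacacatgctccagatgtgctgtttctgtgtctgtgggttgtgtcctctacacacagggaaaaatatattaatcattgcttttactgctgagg
Col6a5: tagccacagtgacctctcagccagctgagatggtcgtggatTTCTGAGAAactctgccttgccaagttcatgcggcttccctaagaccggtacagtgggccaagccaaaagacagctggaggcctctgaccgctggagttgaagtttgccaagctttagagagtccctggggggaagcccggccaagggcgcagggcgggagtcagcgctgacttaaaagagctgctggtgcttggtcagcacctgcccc
Col24a1: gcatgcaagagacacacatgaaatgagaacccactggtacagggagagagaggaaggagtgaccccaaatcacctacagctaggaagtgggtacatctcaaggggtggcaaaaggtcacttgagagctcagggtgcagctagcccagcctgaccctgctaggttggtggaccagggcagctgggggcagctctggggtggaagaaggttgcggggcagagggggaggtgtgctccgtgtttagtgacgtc
Col28a1: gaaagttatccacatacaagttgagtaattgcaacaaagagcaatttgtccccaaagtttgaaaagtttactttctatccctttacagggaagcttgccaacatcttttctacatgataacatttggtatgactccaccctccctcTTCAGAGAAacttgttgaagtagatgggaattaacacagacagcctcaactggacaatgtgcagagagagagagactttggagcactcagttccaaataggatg
Capitals mark TATAAA in Col3a1 and TTCNNNGAA in Col6a5 and Col28a1. The Col24a1 window holds none of the 3 motifs. A RefSeq window was given for 35 of the 44 members, with 38 windows in all. TTCNNNGAA occurred in 2 of the 38 (5.26%, Col28a1 and Col6a5) and in 7.02% of all 32851 windows of this length. TATAAA occurred in 5 member windows (13.2%) against 12.4% of all, and CCAAT in 13 (34.2%) against 33.8%. The shares of the members lay close to those of all windows, and a match of letters is not a binding site.

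Most of the members called in the DRG of the injected mice rose too. Averaged over the sexes, 17 of 41 tested members rose and 1 fell, where 2.14% of all tested genes rose and 1.47% fell. The members' median log2 change was 0.480, beside 0 over all tested genes. The rises comprised 6 of 11 fibrillar chains, 4 of 9 basement membrane chains, 3 of 7 network and beaded filament chains, 2 of 8 FACITs and both genes of the other group, and the fall was Col24a1.

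Type I and III chains rose here as well. Col1a1 was at 1674, 1816 and 1071 CPM in female PRL DRG and at 848, 541 and 596 with Veh, and at 1028, 927 and 1122 against 400, 516 and 419 in males. The arms did not overlap in either sex, and the average change was 1.20 ± 0.14 (adjusted p = 5.0e-04). Col3a1 went from 781, 506 and 427 to 1258, 1630 and 1121 CPM in females and from 317, 509.6 and 380 to 999, 820.2 and 1036 in males (1.23 ± 0.16, adjusted p = 0.0010). Col1a2 rose by 0.86 ± 0.11, Col5a2 by 0.69 ± 0.10, Col5a1 by 0.70 ± 0.12 and Col11a1, a nucleator of thin fibrils, by 0.42 ± 0.06.

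Col24a1 ran against the other fibrillar chains in the DRG. It was at 55.3, 57.8 and 58.4 CPM in female PRL libraries and 80.7, 80.3 and 86.1 with Veh, and at 62.7, 60.4 and 65.5 against 86.8, 87.8 and 94.6 in males. All 6 PRL libraries were below all 6 Veh libraries. The average log2 change was -0.52 ± 0.04 (adjusted p = 2.2e-05), the smallest p among the members.

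Emid2 had the next smallest p. Its levels were 25.6, 33.9 and 23.3 CPM in female PRL DRG against 12.0, 12.7 and 11.9, and 26.9, 25.0 and 24.7 in males against 9.70, 11.1 and 12.1. The lowest PRL library was at 23.3 CPM and the highest Veh library at 12.7, with an average change of 1.20 ± 0.09 (adjusted p = 2.5e-05). Nnt, Wdfy1 and Gabra2 separated the same libraries, as given above. In the paw Emid2 had 9, 11 and 7 reads in female PRL against 0, 1 and 1 in Veh, and 5, 11 and 3 against 0, 3 and 2 in males, and did not pass the filter. It was called higher in the paw average by DESeq2 (adjusted p = 0.0057) and by edgeR with no filter (adjusted p = 0.010). In 10 edgeR fits that left out 1 library each the filter asked for 2 libraries, and Emid2 passed it only through PRL libraries. Their fitted log2 changes, 2.30 to 3.14, are given as a description with no test.

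Col28a1 rose in the DRG by 0.35 ± 0.05 (adjusted p = 0.0012), from 122, 123 and 108 to 144, 159 and 151 CPM in females. Of the basement membrane chains, Col4a1 rose by 0.52 ± 0.08, Col4a2 by 0.51 ± 0.09 and Col15a1 by 0.55 ± 0.11. Col4a5 rose by 0.68 ± 0.14 (adjusted p = 0.020), a call lost without Female DRG PRL replicate 2, Female DRG Veh replicate 3 or Male DRG Veh replicate 1. Among FACITs Col14a1 rose by 0.73 ± 0.11, while Col9a2 passed narrowly (0.43 ± 0.11, adjusted p = 0.048, lost in 11 of 18 alternatives) and Col12a1 did not pass (0.22 ± 0.13, adjusted p = 0.34). The classic type VI chains passed at adjusted p of 0.023 to 0.025, with Col6a3 at 0.59, Col6a1 at 0.64 and Col6a2 at 0.68, and their calls were lost in 6 to 8 of 18 alternatives. Col6a5 was at 7.54 to 37.3 CPM across the DRG libraries with overlapping arms (0.25 ± 0.40, adjusted p = 0.77). Col23a1, the most abundant transmembrane chain of the DRG by CPM, had a change of 0.13 ± 0.07 (adjusted p = 0.31).

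Markers of several cell types moved beside the DRG results. The 8 skeletal muscle markers summed to 141.4 to 4674 CPM of gene reads in female PRL DRG and 63.56 to 320.7 with Veh, and to 664.9 to 2846 against 49.48 to 1619 in males. None of the 8 passed the adjusted threshold and 7 had an unadjusted p under 0.05. With the muscle level of each library as a covariate, 4 members were no longer called while keeping similar changes: Col6a1 at 0.68 (edgeR adjusted p = 0.075), Col6a2 at 0.76 (0.062), Col6a3 at 0.60 (0.091) and Col9a2 at 0.37 (0.20). The glial markers summed to 17980 to 23710 CPM with PRL against 14130 to 16000 in females and to 19210 to 21990 against 11870 to 16660 in males, with 1 of 6 rising by the test. Macrophage markers overlapped and 0 of 6 passed (edgeR; 1 at an unadjusted p under 0.05), and of the sensory neuron markers 0 of 6 passed (1 at an unadjusted p under 0.05). Of 6 fibroblast markers 2 rose, Lum (0.97 ± 0.11) and Mfap5 (0.38 ± 0.10), with sums of 1368 to 1489 CPM with PRL against 1141 to 1592 in females and 1229 to 1448 against 988 to 1369 in males, overlapping in both. Of the endothelial markers 1 of 6 rose (Kdr, 0.50 ± 0.09) and of the pericyte and smooth muscle markers 1 of 6 (Pdgfrb, 0.25 ± 0.05). The part of glia, fibroblasts and vessel cells in the DRG changes was not tested.

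**Figure D4:**
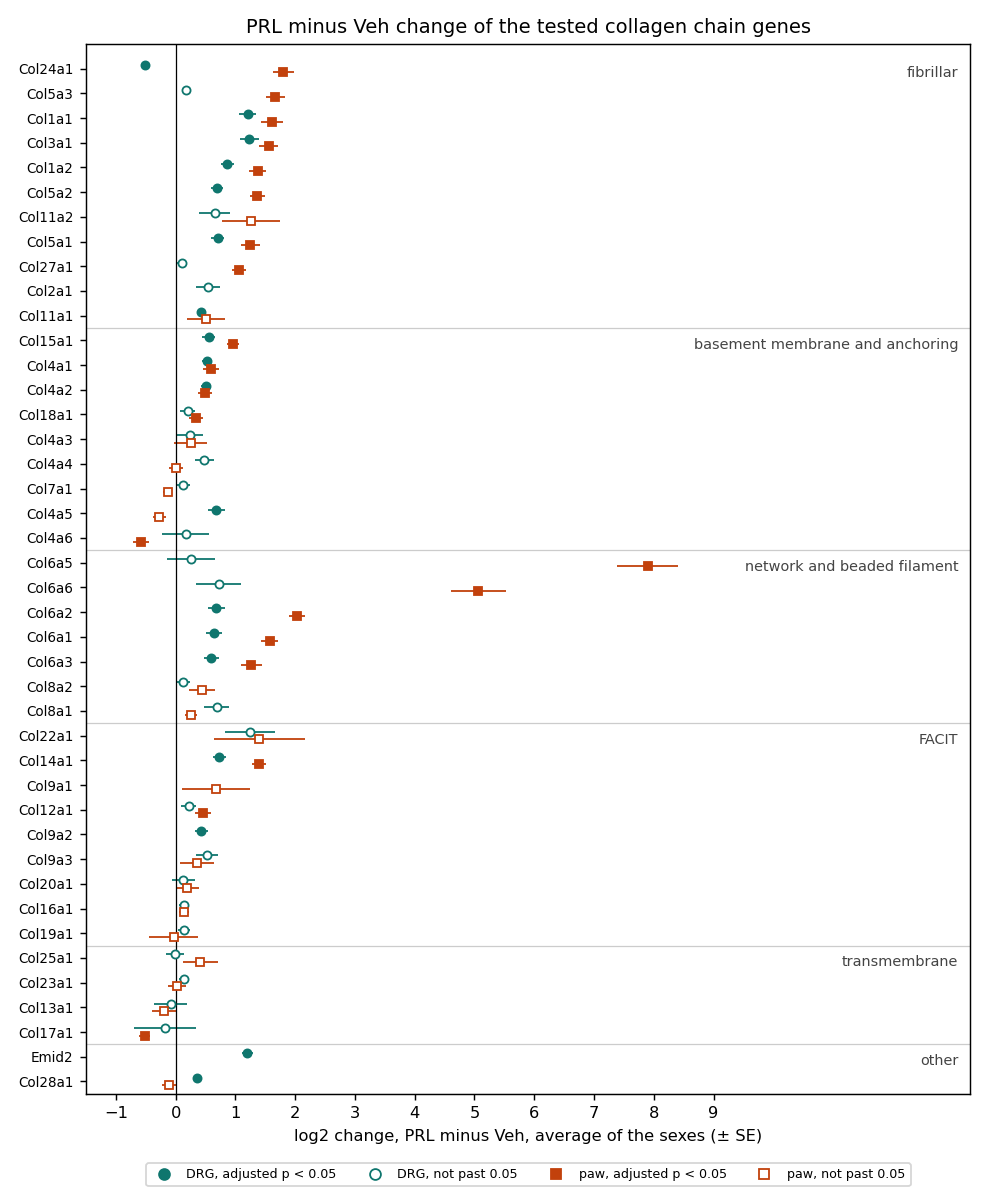
Log2 change from Veh to PRL (x axis, average of the sexes ± SE) for each collagen chain gene tested in the DRG (green circles) or the paw (orange squares), grouped by type; filled symbols have an adjusted p under 0.05. Col6a5 and Col6a6 lie far to the right in the paw, at 7.90 and 5.07, and Col24a1 lies to the left of 0 in the DRG and to the right in the paw.

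Shared and separate responses of the tissues were compared directly. On average over the sexes 12 members rose in both tissues: Col1a1, Col1a2, Col3a1, Col5a1, Col5a2, Col4a1, Col4a2, Col15a1, Col6a1, Col6a2, Col6a3 and Col14a1. Col24a1 fell in the DRG and rose in the paw. A test of the difference between the paw response and the DRG response called 12 members, 10 with the higher response in the paw and 2 with the lower, where 9.8% of all tested genes were called higher and 5.13% lower. Col6a5 led at 7.66 ± 0.75 on the log2 scale, then Col6a6 at 4.37 ± 0.66, Col24a1 at 2.35 ± 0.17 (adjusted p = 3.7e-08), Col5a3 at 1.51 ± 0.18 and Col6a2 at 1.38 ± 0.20. Col27a1 and Col6a1 differed by 0.97 ± 0.15 and 0.95 ± 0.20. For Col5a3 the DRG change was 0.18 ± 0.05 (adjusted p = 0.077) and for Col27a1 0.10 ± 0.08 (adjusted p = 0.49), against rises over 1 in the paw. DESeq2 called Col5a3 higher in the DRG (0.17, adjusted p = 0.026), as did 1 edgeR fit without 1 library (0.21, adjusted p = 0.040). The response was lower in the paw for Col4a5 (-0.94 ± 0.19) and Col28a1 (-0.45 ± 0.12). Col1a1, Col1a2 and Col3a1 were not among the members called, though Col1a2 was called higher in the paw by DESeq2 (0.49, adjusted p = 0.043) and in 6 edgeR fits without 1 library (0.57 to 0.60, adjusted p from 0.025 to 0.048). Other uncalled members passed in some alternatives too. Col15a1 was called higher in 5 edgeR fits without 1 library and with the replicate block, Col5a1 in 5 such fits and Emid2 in 4. Col4a4 was called lower in 1 such fit and Col7a1 with the muscle covariate. Without Female paw PRL replicate 2, 9 members had the higher response in the paw and 2 the lower.

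Within each sex fewer members passed. In female DRG 7 rose and 1 fell, where 0.292% of all tested genes rose and 0.36% fell. In male DRG 6 rose and 1 fell, against 0.286% and 0.231%. Both sexes called Col1a1, Col1a2, Col3a1, Col28a1, Emid2 and, as a fall, Col24a1. Col11a1 and Col5a2 passed in females only by this threshold and Col14a1 in males only. Groups without overlap were seen for 18 of 41 members in females (15.5% of all tested genes) and 20 of 41 in males (19.3%). Of the calls in either sex of the DRG, those of Col24a1 and Emid2 were kept in every alternative. With the muscle covariate the called members fell to 3 in each sex, and with the replicate number as a block 4 were called in males. In the paw 15 rose and 0 fell in females, where 6.54% of all tested genes rose and 1.01% fell. Male paw had 18 that rose and 2 that fell, against 12.3% and 10.1%. All 15 female calls were also called in males, Col6a6 among them. Col6a6 and the uncalled Col9a3 passed the filter on low counts only with the PRL libraries. The paw counts in this paragraph are thus given as a description. Groups without overlap were seen for 18 of 39 members in female paw (24.5% of all genes) and 22 in male paw (41.5%). Leaving out single libraries gave 2 to 17 calls in female DRG and 2 to 7 in male DRG, with 17 without Female DRG Veh replicate 1, the library with the high adipocyte markers. Leaving out Female paw PRL replicate 3 raised the female paw calls to 23.

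The responses of the sexes were not shown to differ for any member. The test of the female response minus the male response called 0 members in the DRG (edgeR, with 0 members at an unadjusted p under 0.05 and 0 by DESeq2), where 0% of all genes were called. In the paw it called 0 members (1 at an unadjusted p under 0.05, 0 by DESeq2), where 0.00679% of all genes were called. The 1 member was Col1a1, with a female minus male difference of 0.78 ± 0.36 (adjusted p = 0.38). At rest, females and males differed in 0 members in DRG Veh (7 at an unadjusted p under 0.05, 0 by DESeq2), where 0.0544% of all genes were called, and in 0 in paw Veh (6 at an unadjusted p under 0.05), where 0.109% were called. The smallest p in the paw was that of Col1a1, at 1431 ± 294 CPM (SD, n = 3) in females and 3304 ± 818 in males, a log2 difference of -1.21 ± 0.26 (edgeR adjusted p = 0.15). DESeq2 called 3 members, Col1a1, Col1a2 and Col3a1, lower in female paw Veh.

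Ratios of chain counts within a library do not depend on library scaling. Type I collagen is usually built from Col1a1 and Col1a2 chains in a fixed proportion. The Col1a1 to Col1a2 ratio of counts in the DRG averaged 0.842 with PRL and 0.697 with Veh in females, and 0.752 against 0.571 in males, without overlap in either sex. Its mean log2 difference was 0.33 (two-sided exact permutation within sex, p = 0.005, the smallest the 400 arrangements allow; 0.02 adjusted over 4 tests). In the paw it averaged 1.26 against 0.947 in females and 1.22 against 1.15 in males, where the arms overlapped, with a log2 difference of 0.24 (exact permutation p = 0.02, adjusted 0.04). The paw call was lost in 5 of the 12 omissions of 1 library (exact adjusted p up to 0.07). With pairing by replicate number the exact adjusted p was 0.0625 in the DRG and 0.125 in the paw. The few arrangements of that pairing allow no adjusted p under 0.0625, so neither tissue could pass. The Col3a1 to Col1a1 ratio had a log2 difference of 0.06 in the DRG (exact permutation p = 0.545) and -0.06 in the paw (exact permutation p = 0.44), both 0.545 after adjustment.

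**Figure D5:**
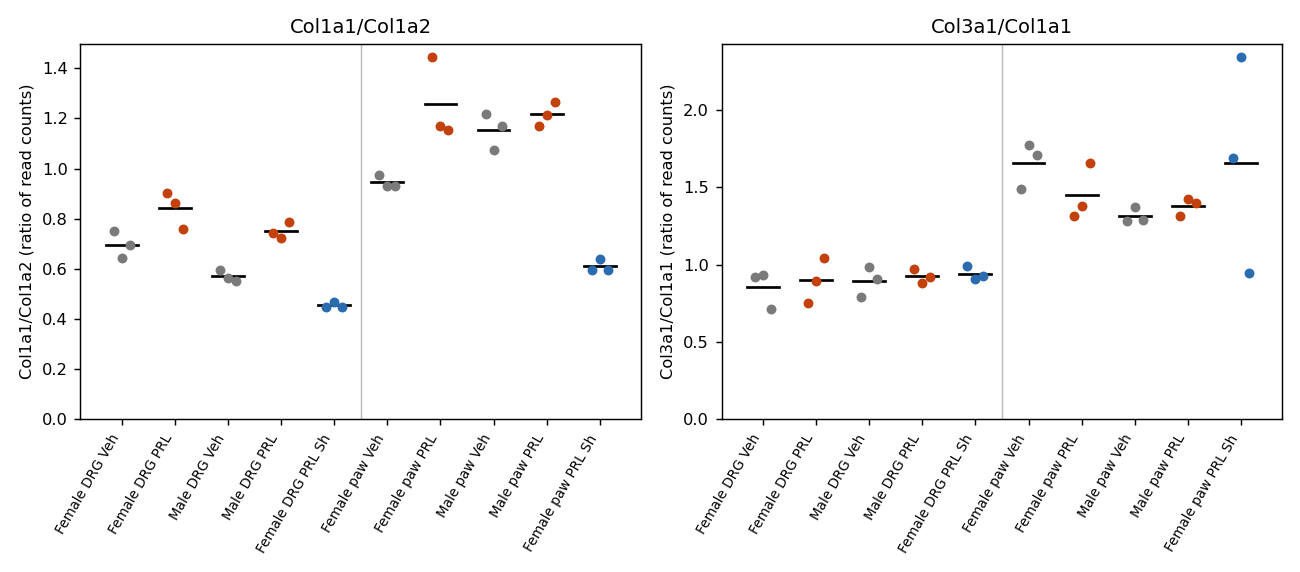
Ratio of read counts of Col1a1 to Col1a2 and of Col3a1 to Col1a1 (y axes, no unit) in each library by group; grey points are Veh, orange PRL and blue PRL_Sh, and the bar is the mean of 3. The Col1a1 to Col1a2 ratio is higher with PRL in both sexes of the DRG and in female paw, overlaps in male paw, and is lowest in PRL_Sh within each tissue.

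Other genes of the collagen pathway rose in the paw. Of 19 listed genes for chain modification and folding, 12 rose and none fell on average over the sexes, with the smallest p for Lepre1, a prolyl 3-hydroxylase (0.88 ± 0.11), Serpinh1, the collagen chaperone HSP47 (0.92 ± 0.11), and P4ha1, a prolyl 4-hydroxylase subunit (0.77 ± 0.10). Of 13 genes for procollagen trimming and crosslinking 8 rose and none fell, led by Adamts14, a propeptidase (1.52 ± 0.13), Tll1, a tolloid protease (0.99 ± 0.11), and Loxl2, a lysyl oxidase (1.14 ± 0.14). Of 10 collagen receptors 5 rose and none fell, with Lair1, an inhibitory receptor of immune cells, at 2.06 ± 0.17, Itga11, an integrin chain for fibrillar collagen, at 1.52 ± 0.20 and Itgb1, its beta partner, at 0.37 ± 0.08. These counts stand beside the same 14.9% of all tested genes that rose. In the DRG 1 folding gene rose (Plod1, a lysyl hydroxylase, 0.31), 1 trimming gene (Adamts14, 0.52, adjusted p = 0.048) and 2 receptors (Ddr1, 0.23, and Itga2, 0.56), beside 2.14% of all tested genes.

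The PRL_Sh libraries differed from the PRL libraries in kit as well as label, and kit and group cannot be told apart. In female DRG 1 of 42 tested members was higher in PRL_Sh than in PRL and 28 were lower, where 29.3% of all tested genes were higher and 32.3% lower. Low members such as Col6a6 passed the filter on low counts only with the PRL libraries, so the count is given as a description. The members' median was -1.04, beside -0.004 over all tested genes. Col1a1 differed by -2.29 ± 0.19, Col3a1 by -2.19 ± 0.15 and Col12a1 by -2.45 ± 0.14. The member that was higher was Col16a1, a FACIT of skin and vessel walls (0.65 ± 0.13). Nnt was at 17.5 to 19.4 CPM in the PRL_Sh DRG, on the scaling of that fit.

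In female paw 1 of 40 members was higher in PRL_Sh and 26 were lower, where 29.4% of all tested genes were higher and 29% lower. Col1a1 stood at 228, 150.2 and 440.2 CPM in PRL_Sh and 7382, 6206 and 4342 in PRL (-4.45 ± 0.49). Col14a1 differed by -4.92 ± 0.16, Col3a1 by -4.47 ± 0.28 and Col6a2 by -4.16 ± 0.23. Col6a5 had 0, 1 and 9 reads and Col6a6 0, 1 and 1 in PRL_Sh. Emid2 was at 0.867 ± 0.234 CPM in PRL and 0.264 ± 0.17 in PRL_Sh (SD, n = 3). Emid2, Col6a5 and Col6a6 passed the filter on low counts only through the PRL libraries, where they are high. Their place among the 26 is thus a description with no test. Emid2 was not called by DESeq2, with the replicate block, or without PRL replicate 1 or 2. Col6a4 did not pass the filter, and was called lower in PRL_Sh by DESeq2 (adjusted p = 0.0047) and by edgeR with no filter (0.0081). In 3 edgeR fits that each left out 1 PRL library it passed the filter only through the remaining PRL libraries. Their fitted log2 differences, -2.91 to -2.34, are given as a description with no test. The epidermal Col17a1 did not pass the threshold, at 892 CPM in PRL_Sh and 907 in PRL (-0.02 ± 0.19, adjusted p = 0.92), and on the per-length scale it was the highest chain of the PRL_Sh paw at 160.7 ± 24.2 (SD, n = 3). Transmembrane chains made up 22.8% to 37.8% of collagen reads there, against 2.72% to 4.52% in female paw PRL and 9.52% to 14.2% in female paw Veh. Col9a1, a cartilage FACIT, was the member that was higher (2.39 ± 0.70). Its call was lost without PRL replicate 1, PRL_Sh replicate 1 or PRL_Sh replicate 3 and with the replicate block. Col9a1 passed the filter on low counts only through the PRL_Sh libraries, where it is high. Its place as the 1 higher member is thus a description with no test. Muscle markers summed to 17850 to 31290 CPM of gene reads in the PRL_Sh paw against 469.5 to 9561 in female paw PRL, and macrophage markers to 186.2 to 189.7 against 635.9 to 1176. Their part in these differences was not tested.

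Between the PRL_Sh tissues 9 of 42 members were higher in the paw and 22 lower, where 39.9% of all tested genes were higher and 40.2% lower. Col17a1 (10.4), Col9a1 (5.90) and Col4a6 (5.81) were again on the paw side, and Emid2 (-5.86) and Col9a2 (-5.44) on the DRG side. Col9a1, Col4a6, Emid2, Col9a2, Col6a5, Col2a1 and Col10a1 passed the filter on low counts only with the tissue in which they were higher. Their differences and their place in these counts are a description with no test. Col3a1 and Col1a1, higher in the paw by over 2 in the Veh libraries, had log2 differences of 0.18 and -0.42 here and did not pass the threshold.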

How the data were processed

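RNA-seq of 30 libraries was used as raw read counts per gene, as deposited by the authors, for 22609 genes and 5 summary lines per library. The submitters' processing notes name bcl2fastq, TopHat2, HTSeq and mm9. The strand setting, like versions and counting mode, is not given in the sources used here, so reads of overlapping genes on opposite strands cannot be told apart. Libraries were made from 500 ng of RNA and read for 50 nt, per the labels' protocols. The members and gene lists were chosen with earlier results of these data known. Every member may be named, and full statistics go to at most 12 called members of a comparison by p.

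The counts were tested with edgeR 4.0.16 (limma 3.58.1, R 4.3.3): filterByExpr, TMM scaling, a mean per group, the quasi-likelihood test and Benjamini-Hochberg adjustment over all tested genes, with a threshold of 0.05. The 12 rRNA-depleted libraries of a tissue were fitted together, all 24 for tissue comparisons, and 6 for each PRL_Sh comparison. Levels are TMM-normalised CPM unless called CPM of gene reads. The comparisons share libraries: both sex-wise contrasts feed the averages, and the PRL_Sh contrasts use the PRL libraries. The planned coding lengths were not used. Per-length levels use the exon length of the transcript with the longest coding sequence in GENCODE vM21 (GRCm38). Promoter windows come from RefSeq. On simulated counts with 200 genes changed 2-fold, the test recovered 81% in female DRG, 74.5% in female paw and 31% for PRL_Sh against PRL in the paw. Alternatives were RLE scaling, DESeq2 1.42.0, no filter, 1 CPM in 3 libraries, the replicate number as a block, a muscle covariate, a fit to the compared groups and leaving out each library.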

Additional observations from a re-analysis of the deposited data

Results flagged for a closer look

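The log2 change from Veh to PRL differed between paw and DRG by the edgeR interaction test for 12 members. Paw minus DRG, the differences were 7.66 for Col6a5, 4.371 for Col6a6, 2.346 for Col24a1, 1.509 for Col5a3 and 1.375 for Col6a2. They were 0.971 for Col27a1, 0.946 for Col6a1, 0.694 for Col5a2, 0.684 for Col6a3 and 0.682 for Col14a1. Col4a5 (-0.94) and Col28a1 (-0.446) had the lower response in the paw. The call of Col6a3 was lost in 21 of 30 alternatives, and the other 11 were kept in every alternative. No group held more than 3 libraries, so no single library was tested as an outlier.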

How the results depend on the processing

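Of the members called, calls were kept in every alternative by 2 of 8 in female DRG (Col24a1 and Emid2), 2 of 7 in male DRG, 13 of 18 in the DRG average, 14 of 15 in female paw, 16 of 20 in male paw and 19 of 21 in the paw average. The same held for 35 of 38 in the Veh tissue comparison, 11 of 12 in the response difference, 26 of 29 and 22 of 27 in PRL_Sh against PRL for DRG and paw, and 29 of 31 between the PRL_Sh tissues. No called member changed direction. Where called members passed the filter on low counts only through the group in which they were high, as Col6a6 in the paw, these counts are a description. The muscle covariate left 3 calls in female DRG and 3 in male DRG and gave 23 in female paw. A fit to the compared groups alone left 2 in female DRG. DESeq2 called 12 members in male DRG and 3 between the sexes in paw Veh. Leaving out 1 library gave 2 to 17 calls in female DRG (2 without PRL replicate 1, PRL replicate 2 or Veh replicate 3, 3 without Veh replicate 2 and 17 without Veh replicate 1). It gave 2 to 7 in male DRG (2 without PRL replicate 1, Veh replicate 1 or Veh replicate 3, 3 without PRL replicate 2 or 3) and 14 to 23 in female paw (23 without PRL replicate 3). Elsewhere the ranges were 13 to 21 for the DRG average, 20 to 25 for the paw average, 16 to 18 for male paw, 37 to 38 for the Veh tissues, 11 to 16 for the response difference, 27 to 30 and 22 to 30 for PRL_Sh against PRL in DRG and paw and 30 to 34 between the PRL_Sh tissues. Where an arm was left with 2 libraries, the spread was pooled over the fit.

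In no pair of groups checked did libraries with the same replicate number deviate together at each of the 3 numbers. The correlations of their deviations ran from -0.476 to 0.339. The labels do not say what the numbers mark, so whether they pair libraries cannot be told. With the replicate block 4 members were called in male DRG, 8 in female DRG, 15 in female paw, 18 in male paw, 18 in the DRG average and 20 in the paw average. The Col1a1 to Col1a2 difference with pairing by replicate number was 0.334 in the DRG (exact adjusted p = 0.0625) and 0.239 in the paw (exact adjusted p = 0.125). The paired test allows no adjusted p under 0.0625, so it could not pass the threshold. Leaving out 1 library gave 0.305 to 0.370 for it in the DRG and 0.186 to 0.268 in the paw, where 5 of the 12 omissions (Female paw Veh replicates 2 and 3, Male paw PRL replicate 3 and Male paw Veh replicates 2 and 3) gave an exact adjusted p of 0.05 to 0.07. For Col3a1 to Col1a1 the range was -0.00281 (without Female DRG Veh replicate 3) to 0.121 in the DRG and -0.112 to -0.0283 in the paw. The cause was not tested in these cases. Counts were low for Col6a4, which had 0 to 16 reads in every library, and for Emid2 in the paw.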
